A study of Mus musculus with 7 samples.

Results

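The genes described here mark the macrophages of the liver. Of the 10 genes, 6 are grouped here with the resident macrophages, called Kupffer cells (Adgre1, Clec4f, Vsig4, Marco, Cd5l and Timd4). Another 2 are carried by macrophages and monocytes in general (Csf1r and Cd68), and 2 mark lipid-associated macrophages (Trem2 and Gpnmb). All 10 genes were chosen by name among the probes of the array, where 13 probes carry one of these names. Each was among the 18755 genes tested. RNA of whole liver from untreated C57BL/6J mice of 4 weeks was hybridised to Agilent whole-genome arrays, 1 array per animal. The 4 Rbpj +/+ mice were AlfpCre- with 2 floxed Rbpj alleles and had no cholestasis. The 3 Rbpj -/- mice were AlfpCre+ with the same floxed alleles, and their livers were cholestatic. AlfpCre is driven by albumin and alpha-fetoprotein regulatory elements and acts in the epithelial lineage of the liver, so that macrophages are not its intended target. All values come from pieces of whole liver, and no macrophages were isolated.

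Kupffer cells settle in the liver sinusoids before birth, renew themselves there and take up particles, bacteria, aged red blood cells and lipoproteins from the portal blood. When the liver is injured, monocytes from the blood enter it and become macrophages, some of which take on Kupffer cell genes over time. CLEC4F and TIM-4 (Timd4) are used to tell long-resident Kupffer cells from recently recruited ones, whereas TREM2 and GPNMB are raised in macrophages that take up lipid and cell debris.

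Values are given as log2 intensity minus the 75th percentile of the same array, so that 0 is the level of that percentile and 1 unit is a 2-fold difference. The levels of different probes cannot be set against each other. Genotypes were compared with limma, with p-values adjusted by Benjamini-Hochberg over 24548 tested probes and a threshold of 0.1. The share of probes well above background was 41.1% to 64.9% between arrays, and Rbpj +/+_1156 and Rbpj -/-_N3 had a higher median intensity (19.5 and 31.1) than the other arrays (5.37 to 8.76). The targeted gene, Rbpj, read by its brighter probe, stood at 0.60 ± 0.34 (SD) in the 4 control livers and at -0.54 ± 0.22 (SD) in the 3 others, and fell by 1.13 on the log2 scale (SE 0.24, limma adjusted p = 0.0115). The Rbpj +/+ arrays lay in row 1 of the slide and the Rbpj -/- arrays in row 2, so that slide row and genotype cannot be told apart.

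Of the 10 macrophage genes, 8 were higher in Rbpj -/- liver and none was lower. The 8 were Adgre1, Vsig4, Marco, Cd5l, Csf1r, Cd68, Trem2 and Gpnmb, and the remaining pair, Clec4f and Timd4, did not pass the test. Gpnmb entered the test through the Rbpj -/- arrays alone, so that it had to be higher there, and without it 7 of 9 were higher. Among all tested genes 14.6% were called higher and 19.5% were called lower, and the median log2 fold change was -0.13, against 1.53 for the 9 macrophage genes other than Gpnmb. In 8 of these 9, all but Timd4, every Rbpj -/- animal lay above every Rbpj +/+ animal, which was so for 15.4% of all genes. In whole liver, more macrophages and more RNA per macrophage cannot be told apart.

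**Figure D1:**
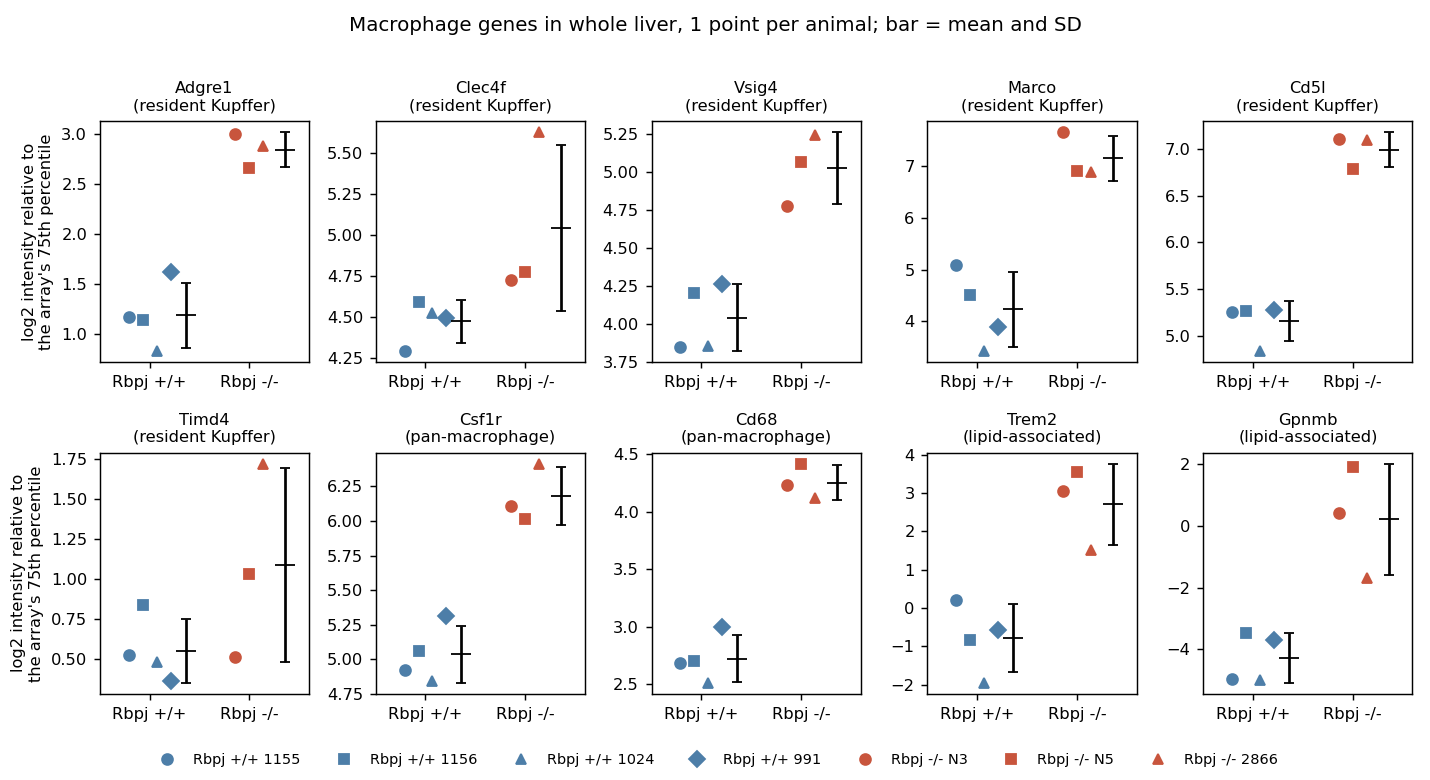
Log2 intensity relative to the 75th percentile of the array for the 10 macrophage genes in the 4 Rbpj +/+ and 3 Rbpj -/- animals, 1 point per animal, with the mean and SD as a bar. The vertical scale differs between panels; only Timd4 has overlapping genotypes (0.51 in Rbpj -/-_N3 and 0.83 in Rbpj +/+_1156), and Rbpj -/-_2866 is highest for Clec4f and Timd4 and lowest for Trem2 and Gpnmb among the Rbpj -/- animals.

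Of the 6 resident Kupffer genes, 4 rose and 2 did not pass. Marco, a scavenger receptor for bacteria and particles, had the largest change of the 6. Its value was 5.10 in Rbpj +/+_1155, 4.51 in Rbpj +/+_1156, 3.42 in Rbpj +/+_1024 and 3.90 in Rbpj +/+_991. It was 7.66 in Rbpj -/-_N3, 6.92 in Rbpj -/-_N5 and 6.89 in Rbpj -/-_2866, and the values of the other genes are given in the same order. The lowest Rbpj -/- animal was well above the highest Rbpj +/+ animal, and the log2 fold change was 2.92 (SE 0.40, limma adjusted p = 0.00220), which is 7.59-fold. The probe lies at chr1:122371170-122371230 (mm9, the build of the array's design).

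Cd5l encodes a secreted scavenger protein (AIM) that macrophages release into the blood. It measured 5.25, 5.27, 4.83 and 5.27 in the Rbpj +/+ animals and 7.10, 6.78 and 7.10 in the Rbpj -/- animals (probe at chr3:87174823-87174882). The change was 1.84 (SE 0.20, limma adjusted p = 9.55e-04), 3.58-fold, with little spread within either genotype. Adgre1 encodes F4/80, the surface protein by which mouse macrophages are commonly stained, and is not particular to resident ones. Its brighter probe (chr17:57622868-57622927) read 1.17, 1.14, 0.82 and 1.61 in Rbpj +/+ and 2.99, 2.65 and 2.87 in Rbpj -/- liver. The change was 1.66 (SE 0.23, limma adjusted p = 0.00225), and a dimmer probe (chr17:57620350-57620409) gave 2.23 (SE 0.23). Both Adgre1 probes separated the genotypes without overlap.

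Vsig4, the complement receptor CRIg, which captures opsonised particles, rose less. Its values were 3.85, 4.20, 3.85 and 4.26 in Rbpj +/+ and 4.77, 5.06 and 5.24 in Rbpj -/- liver (chrX:93442598-93442657), with a change of 0.99 (SE 0.21, limma adjusted p = 0.0121), 1.98-fold. With no filter on dim probes the adjusted p of Vsig4 was 0.113.

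Clec4f and Timd4 were the resident genes that did not pass. Clec4f, a C-type lectin that in mice is nearly restricted to Kupffer cells, measured 4.29, 4.59, 4.52 and 4.49 in Rbpj +/+ and 4.73, 4.77 and 5.63 in Rbpj -/- liver (chr6:83595281-83595339). Rbpj -/-_N3 and Rbpj -/-_N5 lay just above the highest Rbpj +/+ animal, and Rbpj -/-_2866 stood well above the others. The change was 0.57 with a 95% confidence interval of 0.00 to 1.14 (limma adjusted p = 0.130), and 0.28 without Rbpj -/-_2866. The exact two-sided permutation test gave p = 0.0286, the smallest that 35 assignments of 7 animals allow. Clec4f passed under 3 alternatives, normexp background correction (0.82, adjusted p = 0.0160), limma-trend (adjusted p = 0.0967) and array weights (adjusted p = 0.0826).

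Timd4, a phosphatidylserine receptor for the uptake of dying cells, measured 0.52, 0.83, 0.48 and 0.36 in Rbpj +/+ and 0.51, 1.03 and 1.72 in Rbpj -/- liver (chr11:46657173-46657232). Rbpj -/-_N3 lay within the Rbpj +/+ range, and only Rbpj -/-_N5 and Rbpj -/-_2866 exceeded it. The change was 0.54 with a 95% confidence interval of -0.12 to 1.19 (limma adjusted p = 0.205, exact permutation p = 0.171). Without Rbpj -/-_2866 it was 0.22, and without Rbpj -/-_N3 it was 0.82 and passed (adjusted p = 0.0820), as it did with array weights (0.69, adjusted p = 0.0634).

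The changes of the genes were also compared with each other within animals, by an exact two-sided permutation test of the difference between the log2 values of each pair of the 9 genes other than Gpnmb, with p-values adjusted over the 36 pairs. A constant scaling of an array cancels in this difference. No pair passed after adjustment. In 10 of the 36 pairs the exact permutation p was 0.0286, the smallest possible, with an adjusted p of 0.103. With this floor, whether a pair passed depended on how many pairs reached it, however large its difference was. Among these 10 pairs, the change of Clec4f was 1.08 below that of Adgre1 and 1.27 below that of Cd5l. The change of Timd4 was 2.39 below that of Marco and 1.30 below that of Cd5l. These are 4 of the 8 pairs that set Clec4f or Timd4 against the other resident genes. Vsig4, which passed as a gene, also reached the smallest p. Its change was 0.67 below that of Adgre1, 0.85 below that of Cd5l and 0.55 below that of Cd68. At the same p, the change of Csf1r by its brightest probe was 0.51 below that of Adgre1 and 0.70 below that of Cd5l. None of the 4 pairs that set Clec4f or Timd4 against Csf1r or Cd68 reached the smallest p (0.0571 to 0.0857). Clec4f and Timd4 differed from each other by 0.04 (exact permutation p = 0.914).

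The stretches of promoter before 6 of the genes are shown to set those that did not pass (Clec4f and Timd4) beside resident genes that rose (Marco and Cd5l) and beside the lipid-associated pair. Each holds the 150 bases before the RefSeq start site, 5′ to 3′ on the strand of the gene (GRCm38.p6, chr6:83656117-83656266 on the minus strand for Clec4f, chr11:46810649-46810798 on the plus strand for Timd4, chr1:120505025-120505174 on the minus strand for Marco, chr3:87357731-87357880 on the plus strand for Cd5l, chr17:48346251-48346400 on the plus strand for Trem2 and chr6:49036368-49036517 on the plus strand for Gpnmb). Capitals mark the letters GAGGAAG or GGAAGT on either strand, which are forms of the site of PU.1 (Spi1), the transcription factor that macrophages need for their development.
Clec4f: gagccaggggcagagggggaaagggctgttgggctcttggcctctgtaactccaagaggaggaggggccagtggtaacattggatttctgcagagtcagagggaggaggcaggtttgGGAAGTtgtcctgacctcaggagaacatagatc
Timd4: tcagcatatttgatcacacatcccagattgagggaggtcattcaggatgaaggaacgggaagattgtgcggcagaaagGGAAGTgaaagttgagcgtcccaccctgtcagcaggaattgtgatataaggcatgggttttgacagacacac
Marco: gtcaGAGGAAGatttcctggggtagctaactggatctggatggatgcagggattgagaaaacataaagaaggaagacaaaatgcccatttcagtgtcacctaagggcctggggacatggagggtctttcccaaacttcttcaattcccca
Cd5l: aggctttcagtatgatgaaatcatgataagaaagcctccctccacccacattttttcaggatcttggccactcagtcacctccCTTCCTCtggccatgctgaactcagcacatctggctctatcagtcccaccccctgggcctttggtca
Trem2: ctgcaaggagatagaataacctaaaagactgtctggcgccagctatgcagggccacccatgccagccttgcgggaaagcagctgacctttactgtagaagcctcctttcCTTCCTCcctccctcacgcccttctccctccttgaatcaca
Gpnmb: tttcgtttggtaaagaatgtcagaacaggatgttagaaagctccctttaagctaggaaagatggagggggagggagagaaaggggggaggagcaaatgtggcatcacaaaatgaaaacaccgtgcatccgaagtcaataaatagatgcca
Promoters of 8 of the 10 genes were matched, and 250 bases before the start were searched on both strands for 6 patterns. One of the PU.1 forms was found in 6 of the 8 (GAGGAAG in Marco, Cd5l and Trem2, GGAAGT in Clec4f, Vsig4 and Timd4), and in 26.4% of all 32851 promoters. It lay at -33 to -28 from the start in Clec4f, where it overlaps the letters TGGGAA (-35 to -30), at -72 to -67 in Timd4, at -146 to -140 in Marco, at -67 to -61 in Cd5l and at -41 to -35 in Trem2. TGGGAA, the core letters bound by RBPJ, occurred in Clec4f, Marco and Cd68 and in 21.6% of all promoters. TGANTCA, the AP-1 letters, occurred in Cd68 and Trem2 and in 6.75% of all promoters. TTGCNNAA, a C/EBP form, occurred in Cd68 alone among the 8 and in 9.56% of all promoters. CACGTG, the E-box read by MITF and TFE factors, was in none of the 8 windows, Gpnmb included, and in 6.02% of all promoters. These are matches of letters and not measured binding.

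Both general macrophage genes rose. Cd68, a lysosomal membrane protein of macrophages, read 2.68, 2.70, 2.51 and 2.997 in Rbpj +/+ and 4.23, 4.42 and 4.12 in Rbpj -/- liver (chr11:69477775-69477834). The genotypes were far apart, with a change of 1.53 (SE 0.19, limma adjusted p = 0.00174), 2.89-fold. Csf1r, the receptor for the macrophage growth factors CSF1 and IL-34, has 3 probes on chromosome 18, which disagreed. The brightest (61290725 to 61290784) rose by 1.14 (SE 0.20, limma adjusted p = 0.00617), from 4.92, 5.06, 4.84 and 5.32 to 6.11, 6.01 and 6.41. A dimmer probe nearby (61289398 to 61289456) rose by 1.93 (SE 0.25, limma adjusted p = 0.00177). The third, farthest upstream (61278661 to 61278720), read 1.28, 1.19, 1.14 and 1.37 in Rbpj +/+ and 0.64, 0.91 and 0.96 in Rbpj -/- liver, a difference of -0.41 (limma adjusted p = 0.130). This probe lay lower in every Rbpj -/- animal, and the array files list 1 RefSeq transcript common to all 3, so that the change of Csf1r holds for the other 2 probes only.

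**Figure D2:**
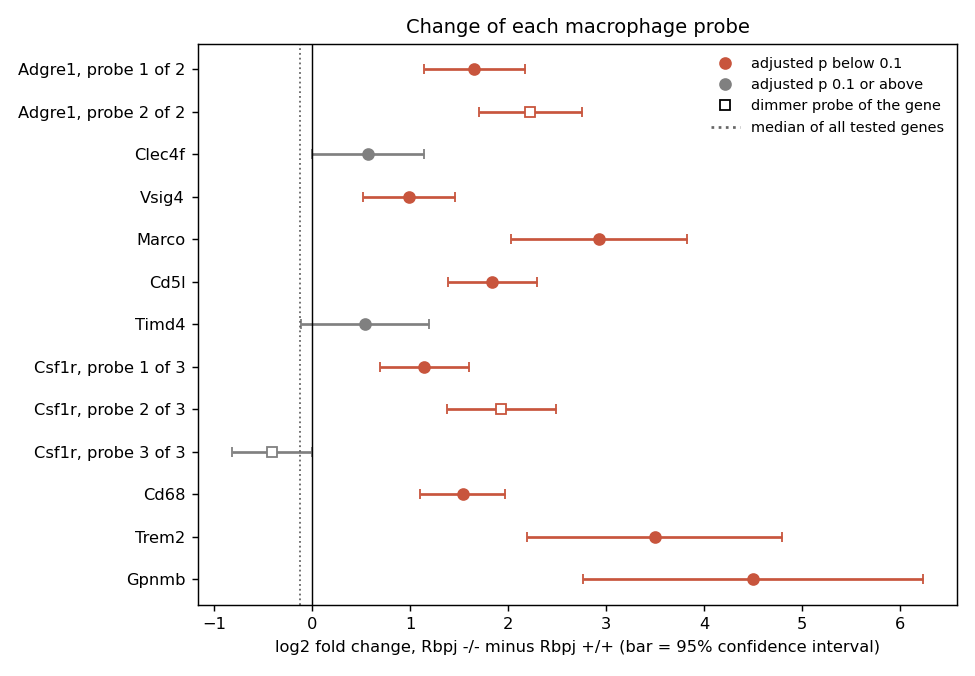
Log2 fold change of each of the 13 probes, Rbpj -/- minus Rbpj +/+, with the 95% confidence interval as a bar; filled circles are the brightest probe of a gene and open squares its other probes. The intervals of Clec4f and Timd4 reach 0.00 and -0.12, the third Csf1r probe lies at -0.41, and the value of Gpnmb is not a bound, since its probe was not well above background in Rbpj +/+ liver.

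Both lipid-associated genes were higher in Rbpj -/- liver. Trem2 encodes a lipid receptor that signals through the adaptor TYROBP (DAP12). It read 0.20, -0.83, -1.96 and -0.56 in Rbpj +/+ and 3.05, 3.56 and 1.53 in Rbpj -/- liver (chr17:48491537-48491596). The spread within genotypes was wide, an SD of 0.89 and 1.06, yet the genotypes did not overlap. The change was 3.50 (SE 0.57, limma adjusted p = 0.00465), 11.3-fold, and it was 3.07 without Rbpj -/-_N5 and 4.09 without Rbpj -/-_2866. With normexp correction it was 2.66, below the change of Marco under the same setting.

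Gpnmb, a transmembrane glycoprotein of phagocytes and pigment cells, was well above background on none of the 4 Rbpj +/+ arrays and on all 3 Rbpj -/- arrays. Its measured values were -4.97, -3.47, -5.00 and -3.70 in Rbpj +/+ and 0.41, 1.91 and -1.68 in Rbpj -/- liver (chr6:49006386-49006445). As given above, the filter alone required it to be higher there. Against the lowest signal well above background on each Rbpj +/+ array, Gpnmb was at least 12.1-fold higher in Rbpj -/- liver (limma adjusted p = 0.00537). That p belongs to the fit on the measured values and, given the filter, is no separate support. This bound was 6.71-fold without Rbpj -/-_N5 and 23.3-fold without Rbpj -/-_2866. The fitted change on the measured values was 4.50 (SE 0.76), and 1.54 after normexp background correction with an offset of 50.

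Trem2 was set against the 6 resident genes in the same within-animal test, and none of the 6 differences passed. With 10 of the 36 pairs at the smallest exact p, no pair could pass, however large its difference. Its change was 2.96 above that of Timd4 (exact permutation p = 0.0286, adjusted p = 0.103) and 2.92 above that of Clec4f (exact permutation p = 0.0571, adjusted p = 0.110). The change of Marco was 0.57 below that of Trem2 (exact permutation p = 0.429). Gpnmb was not entered in these pairs, since it was not measured above background in Rbpj +/+ liver.

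The Rbpj -/- animals also differed among themselves. Rbpj -/-_2866 had the highest Clec4f, Vsig4 and Timd4 of the 3 and the lowest Marco, Cd68, Trem2 and Gpnmb. Rbpj -/-_N5 had the highest Cd68, Trem2 and Gpnmb, and Rbpj -/-_N3 had the lowest Clec4f, Vsig4 and Timd4. Between Rbpj -/-_N5 and Rbpj -/-_2866, Gpnmb was 1.91 against -1.68 and Clec4f 4.77 against 5.63. With 3 animals no test of this order is possible.

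To set the genes against other genes that macrophages carry, the mean over 18 further pan-macrophage genes was subtracted on each array. This reference level was 0.78 ± 0.23 (SD, 4 animals) without and 2.55 ± 0.28 (SD, 3 animals) with the deletion of Rbpj, 1.76 apart. Relative to it, Timd4 was 1.23 lower and Clec4f 1.19 lower in Rbpj -/- than in Rbpj +/+ liver. The 18 genes include Spi1, which was tested through the Rbpj -/- arrays alone. With detection required on all 7 arrays the differences were -1.24 for Timd4 and -1.21 for Clec4f. Which cells held the RNA of the 18 genes was not measured. Clec4f stood at 3.59, 3.73, 4.01 and 3.43 above the mean in Rbpj +/+ and at 1.87, 2.32 and 3.30 above it in Rbpj -/- animals, so that the genotypes did not overlap. Timd4 stood at -0.18, -0.03, -0.03 and -0.69 in Rbpj +/+ and at -2.35, -1.43 and -0.61 in Rbpj -/- animals, where Rbpj -/-_2866 lay within the Rbpj +/+ range. Vsig4 was 0.78 lower (-0.99 to -0.39 over the alternatives) and Csf1r, by its brightest probe, 0.62 lower (-0.85 to -0.03), both without overlap. For Csf1r the direction depended on the probe, as the second probe rose by 1.93.

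Adgre1 (-0.11), Cd5l (0.07) and Cd68 (-0.23) differed little from the other macrophage genes on this scale, with overlapping genotypes. The sign turned for Adgre1 with normexp correction and with the mean of its probes, for Cd68 with normexp correction and for Cd5l without Rbpj -/-_2866. Marco was 1.16 higher and Trem2 1.73 higher relative to the same mean. Gpnmb was at least 1.83 higher when each Rbpj +/+ array was taken at its lowest signal well above background, and 0.10 higher by its values after normexp correction. Trem2 overlapped between genotypes on this scale, as Rbpj +/+_1155 (-0.50) lay above Rbpj -/-_2866 (-0.80). Over the 18 alternatives the relative difference ranged from -1.60 to -0.62 for Clec4f and from -1.66 to -0.78 for Timd4. These are descriptions without a test.

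**Figure D3:**
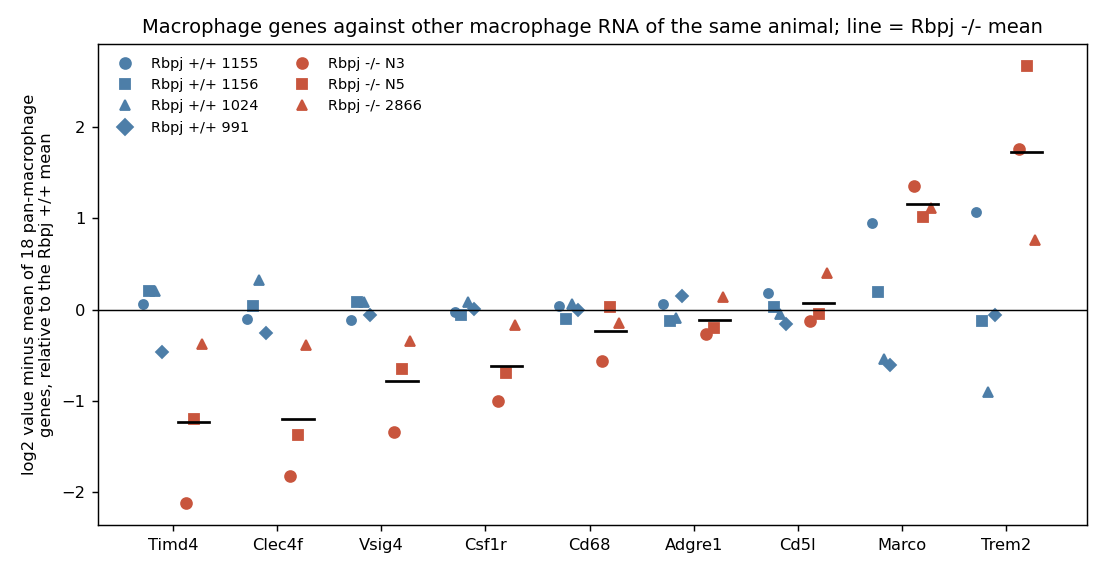
Log2 value of each gene minus the mean of 18 other pan-macrophage genes on the same array, drawn relative to the Rbpj +/+ mean of that gene, 1 point per animal, with the Rbpj -/- mean as a line, for the 9 genes measured in both genotypes. From Timd4 (-1.23) and Clec4f (-1.19) on the left to Marco (1.16) and Trem2 (1.73) on the right, the genes spread to both sides of 0.

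Related genes were read from lists. Of the 18 further pan-macrophage genes, 17 were higher and none was lower (median 1.75). Cd14, a co-receptor for bacterial lipopolysaccharide (4.44, SE 0.59), and Lyz2, the lysozyme of myeloid cells (2.85, SE 0.33), led the list. Spi1, 1 of the 17, was well above background on 0 of the Rbpj +/+ arrays. Like Gpnmb it was tested through the Rbpj -/- arrays alone and had to be higher there. With detection required on all 7 arrays, 16 were higher. The complement genes C1qa, C1qb and C1qc rose by 1.63, 1.94 and 1.36.

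Of 15 other genes linked to Kupffer cell identity, 7 rose, 1 fell and 7 did not pass (median 1.02). The 7 that rose were Il18bp, which binds interleukin 18 (1.82, SE 0.19), Slc11a1, a phagosomal metal transporter (1.78, SE 0.23), Hmox1, which breaks down haem (1.39, SE 0.23), Fcna (1.22, SE 0.24), Spic, a factor of iron-recycling macrophages (1.20, SE 0.30), Slc16a9 (1.28) and Folr2 (1.02, adjusted p = 0.0940). C6, a complement component that hepatocytes also make, fell by 1.67 on the log2 scale (SE 0.41, adjusted p = 0.0214). For the genes that rose, the cells that held their RNA were not measured either. Nr1h3, which encodes the lipid-sensing receptor LXR-alpha, differed by -0.34 (adjusted p = 0.232), Id3 by -0.06 (adjusted p = 0.889), and Slc40a1, the iron exporter, by -0.18 (adjusted p = 0.592).

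Of 14 tested genes that lipid-associated macrophages raise, 9 were higher, 1 was lower and 4 did not pass (median 1.35). Lgals3, the galectin of activated macrophages, rose by 2.56 (SE 0.33) and Cd63, a lysosomal tetraspanin, by 2.37 (SE 0.38). Lpl, lipoprotein lipase, rose by 2.16, Atp6v0d2, a proton pump subunit, by 2.23 and Spp1, osteopontin, by 1.66. Fabp5, a fatty acid carrier that hepatocytes also express, fell by 1.13 on the log2 scale (SE 0.32, adjusted p = 0.0347). Which cells held the RNA of the genes that rose was not measured either. Plin2 (-0.79), Lipa (-0.34), Ctsd (0.40) and Ctsb (0.48) did not pass. All 6 tested genes of signalling below TREM2 were higher (median 1.22), with Inpp5d (1.64) and Plcg2 (1.33) at the top.

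Of 15 lysosomal genes, 4 were higher, 3 were lower and 8 did not pass (median 0.00), beside 14.6% and 19.5% of all genes. Npc2 (1.11), Hexa (0.93) and Grn (0.69) were among those that rose, and Gla (-0.91), Ctsz (-0.66) and Ctsa (-0.55) fell. Over the alternatives 0 to 7 of the list were higher and 1 to 3 were lower, with the 0 where dim probes were not filtered and the 7 with normexp correction. Of the transcription factors that act on lysosomal genes, Mitf (-0.24), Tfeb (-0.08) and Tfe3 (0.13) did not pass. Of 10 phagocytic receptors and bridging proteins, 6 were higher and none was lower (median 0.85). Cd36, a receptor for oxidised lipids (3.40, SE 0.19), and Mfge8, which links dying cells to phagocytes (2.61, SE 0.19), led the list. Over the alternatives 5 to 8 of these 10 genes were higher and 0 to 1 lower. Which cells held the RNA of Cd36 and Mfge8 was not measured.

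Among the growth factors and niche signals, Csf1 rose by 0.78 (SE 0.24, adjusted p = 0.0437) and Il34, the other ligand of CSF1R, differed by -0.23 (adjusted p = 0.583). The GM-CSF receptor genes Csf2ra (1.09) and Csf2rb (1.44) rose, and Csf3r, the G-CSF receptor gene, fell by 0.76 on the log2 scale (adjusted p = 0.0564), a call that was lost under 9 of the 18 alternatives, quantile normalization and normexp correction among them, and without Rbpj +/+_1024, Rbpj -/-_N3 or Rbpj -/-_N5. Of 7 tested signals that hold Kupffer cell identity, 4 were higher and none was lower (median 0.87), namely Dll1 (0.74), Bmp6 (0.96), Tgfb1 (0.97) and Tgfb2 (0.87). Dll4 (0.91), Jag1 (0.11) and Gdf2 (0.20) did not pass. Bmp6 and Dll4 were well above background on 3 of the 4 Rbpj +/+ arrays. Over the alternatives 0 to 5 of the list were higher. The count was 0 with no filter on dim probes, and 2 with normexp correction or without Rbpj +/+_1024 or Rbpj -/-_N5.

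**Figure D4:**
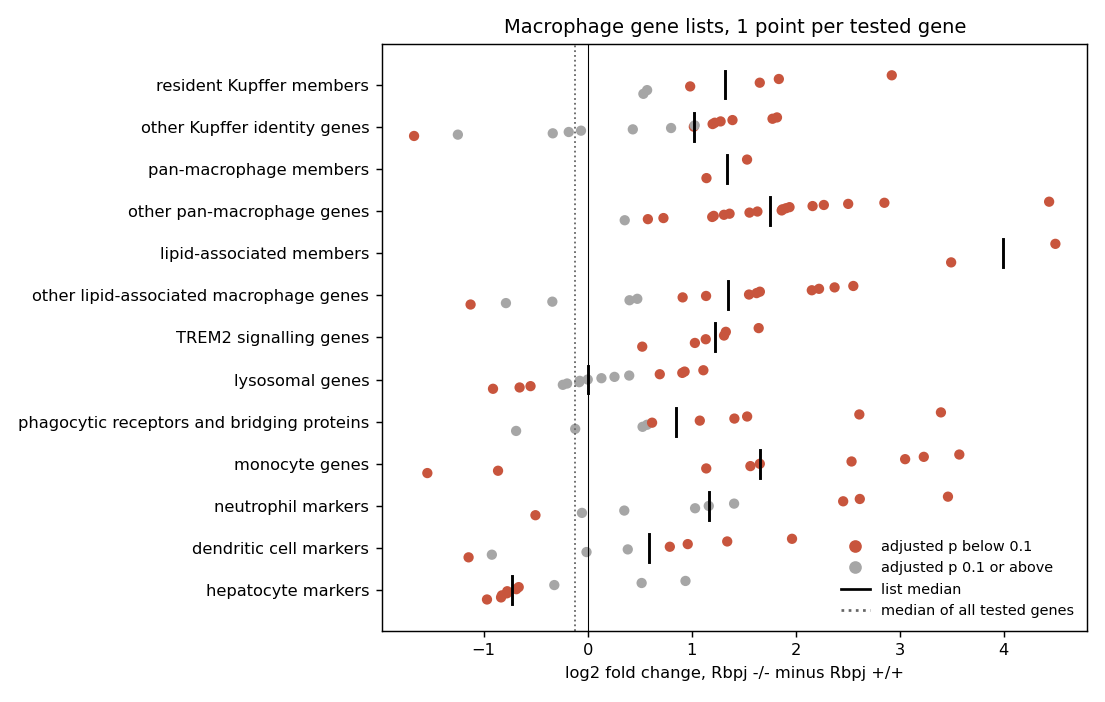
Log2 fold change, Rbpj -/- minus Rbpj +/+, of every tested gene in 13 lists of macrophage and neighbouring cell types, 1 point per gene, with the list median as a black line. The pan-macrophage (median 1.75) and TREM2 signalling genes (1.22) lie to the right of 0 as a whole, and the Kupffer identity (1.02) and lysosomal genes (0.00) lie on both sides.

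Markers of other cells changed in both directions. Of 9 tested monocyte genes, 7 were higher and 2 were lower (median 1.66). F13a1 rose by 3.57 (SE 0.58), Chil3 by 3.23 (SE 0.65), Cx3cr1 by 3.05 (SE 0.43) and Ccr2, the receptor by which monocytes leave the bone marrow, by 2.54 (SE 0.40), whereas Itgam (-1.54, SE 0.31) and Vcan (-0.86, SE 0.25) fell, a call kept under 17 alternatives for Itgam and 14 for Vcan. F13a1 was well above background on 2 and Ccr2 on 3 of the 4 Rbpj +/+ arrays. With detection required on all 7 arrays, 5 monocyte genes were higher. The summed level of the 9 genes, in multiples of the 75th percentile, was 12.6 to 16.2 in Rbpj +/+ and 26.4 to 39.0 in Rbpj -/- liver. Of 9 tested neutrophil markers, 3 were higher (Retnlg 3.47, S100a8 2.62 and S100a9 2.46), Elane was lower (-0.50) and 5 did not pass. Retnlg was well above background on 3 of the 4 Rbpj +/+ arrays, and with detection required on all 7 arrays 2 neutrophil markers were higher. The call of Elane was lost under 12 of the 18 alternatives, also without any 1 of the Rbpj +/+ animals. The summed level of the 9 neutrophil markers was 6.37 to 25.5 against 34.1 to 71.8. All 9 tested proliferation markers were higher (median 2.68), with a summed level of 5.74 to 21.3 against 43.5 to 101.3, highest in Rbpj -/-_2866. Top2a and Bub1 were each well above background on 1 of the 4 Rbpj +/+ arrays, and so were tested through the Rbpj -/- arrays alone. With detection required on all 7 arrays, 7 proliferation markers were higher. Of 10 hepatocyte markers, 7 were lower and none was higher (median -0.73), whereas quantile normalization gave 2 lower and 2 higher. The summed level of the 15 other Kupffer identity genes overlapped between genotypes (113.2 to 133.8 against 124.0 to 156.8), as did that of the 14 lipid-associated genes (504.2 to 792.1 against 694.7 to 793.2), and that of the lysosomal genes was lower in Rbpj -/- liver (733.0 to 949.4 against 684.2 to 728.3). The 5 tested genes of CSF ligands and receptors summed to 185.3 to 280.8 against 121.1 to 168.2, although 3 of the 5 rose. Such sums follow the brightest probes of a list and not most of its genes. In Rbpj +/+ liver the brightest were Csf3r (mean 7.69) for the CSF list and Fabp5 (7.83) and Ctsb (7.33) for the lipid-associated list. For the Kupffer identity list they were Nr1h3 (5.56) and Slc40a1 (5.04). The part of the other cells in the macrophage values was not tested.

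As a description over the 7 arrays, the genes whose values ran most like Clec4f were Tmprss4 (Pearson r = 0.98), Pgm5 (0.98) and Acvrl1 (0.97), and those most like Gpnmb were Zbtb4 (0.99), Nfkbie (0.99) and Slc25a24 (0.99). The points share the array and the genotype difference, and 18727 genes measured on all arrays were compared with each.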

How the data were processed

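Liver RNA of 4 Rbpj +/+ and 3 Rbpj -/- mice was hybridised singly to 1-colour Agilent arrays. Each deposited intensity is the signal of a spot after subtraction of background and detrending by the authors' Feature Extraction software (version 10.7.3.1, submitters' processing notes), with no scaling across arrays. The authors' log2 table, an alternative here, matches quantile-normalized log2 intensities centred by probe (r = 1.00 across probes), although a percentile shift is stated.

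Non-control spots free of outlier and uniformity flags were averaged by probe as log2 values (1186 spot values dropped, none saturated) and shifted by the 75th percentile of their array. Probes were tested when the scanner software marked them as positive and well above background throughout either genotype. Tests used limma 3.58.1 (R 4.3.3), and the brightest tested probe stood for its gene. Single values were also compared by exact permutation over 35 assignments of the animals. How few arrays there are sets the precision, and labels do not exclude that animals shared a litter. In a simulation without any change limma called 0 of 24512 probes; of 100 probes shifted by 1.5 and 100 shifted by 3 (log2) it called 74 and 93, and 23 of the 24312 unchanged probes. Tables and figures were made in Python 3.11.15 with pandas 2.3.3, scipy 1.17.1 and matplotlib 3.10.9.

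The alternatives were normexp background correction (offset 50), quantile normalization, other percentiles, no or a stricter detection filter, a threshold of 0.05, array weights, limma-trend, the authors' log2 table, the mean of a gene's probes, and each animal left out. The 10 genes and the lists were chosen with earlier results of these data known, and the tests between pairs of genes were added after the data were seen. The rule for other named genes takes the 2 largest changes of a list and what small counts need; further list genes in the text were picked with their values known.

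Gene names were renewed through accessions (28331 probes), symbols (2209) or synonyms (174), and 24967 probes kept the array's own. Probe positions are those of the array design, mm9, whose gene annotation was not used here. Lists read besides those in the text were endothelial (4 of 10 higher, 1 lower), stellate and fibroblast (7 of 10 higher), cholangiocyte (1 of 5 tested higher), dendritic cell (4 of 8 tested higher, 1 lower), T and NK cell (3 of 7 tested lower), B cell (5 of 7 tested lower) and erythroid markers (1 of 6 tested lower). Among all tested genes, 14.6% were called higher and 19.5% lower. With detection required on all 7 arrays, 3 endothelial and 2 dendritic cell markers were higher. Under the same filter 2 dendritic cell and 2 B cell markers were lower. Protein, histology, serum and human data were not analysed here. Single results for some list genes are not reported here.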

Additional observations from a re-analysis of the deposited data

Results flagged for a closer look

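Among the 10 macrophage genes, Cd5l in Rbpj +/+_1024 lay apart from the other Rbpj +/+ animals. It read 4.83 there and 5.25 to 5.27 in the other 3, and its gap to the nearest of them was 0.947 of the range of the group, above Dixon's 95% critical value for a group of 4. Chance alone marks about 1 in 20 groups in this way, and 10 genes were looked at. Adgre1 (0.82), Marco (3.42), Csf1r (4.84), Cd68 (2.51) and Trem2 (-1.96) were also lowest in this animal, by gaps that were not marked. Without it, the change of Cd5l passed as before (1.73 against 1.84 with it). The Rbpj -/- group of 3 animals was not examined for such values.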

How the results depend on the processing

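The number of macrophage genes called, 8 of 10, ranged from 7 to 10 over 18 alternatives, and that of resident Kupffer genes, 4 of 6, from 3 to 6. No change of the 10 genes turned its sign in any of them. The 179 changes recomputed for single genes kept their side of the threshold in 173; the 6 others, of Clec4f, Timd4 and Vsig4, are given with these genes. The cause of each was not tested. Of the lipid-associated genes, 1 of 2 was called where detection on all 7 arrays was required, since that filter leaves Gpnmb out. With no filter on dim probes, 1639 of all genes passed instead of 6406, and 61 genes of the related lists instead of 118. Leaving out each animal gave 3716 to 7100 genes over the whole array, the lowest without Rbpj -/-_N5, and 4268 without Rbpj +/+_1024. The 75th percentile over all spots was added after the data were seen and changed no call among the 10 genes. The number of genes that changed less than the mean of the pan-macrophage genes, 6 of 10, was 4 to 7 over the alternatives. With the pairs of Gpnmb included, 16 of 45 pairs of genes passed (adjusted p = 0.0804 by the exact permutation test) where none of 36 did without them. The filter required Gpnmb to be higher in Rbpj -/- liver, and its Rbpj +/+ values were below background. The added pairs at the smallest p alone carried the others across the threshold, so that these passes are no result about them. No paired analysis was possible because the groups share no replicate numbers. Slide and scan as a block were not run, because all arrays share 1 slide and 1 scan. With 3 against 4 animals an exact test cannot give less than 0.0286, and signals below background, as of Gpnmb in Rbpj +/+ liver, allow only bounds.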
